A study of Mus musculus with 8 samples.

Results

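The primitive streak and mesendoderm genes are 9 genes of the deposited count table of 50686 Ensembl gene identifiers, picked by symbol: T (brachyury, also written Tbxt), Eomes, Tbx6, Mixl1, Gsc, Evx1, Lhx1, Mesp1 and Cer1. Each symbol matched 1 identifier, and 8 of the 9 genes had a count above 0 in at least 1 library. RNA came from mouse embryonic stem cells (mESCs) that were wild type (R9wt) or deleted for the checkpoint and DNA repair gene Rad9 (Rad9-/-, R9del). Both genotypes were cultured for 1 day (D1) or 5 days (D5) in a satellite payload in space, or in the same kind of payload on Earth (ground), and were fixed in the culture device before RNA was extracted. Every one of the 8 conditions is 1 culture and 1 library, so no condition has a replicate, and the labels do not say how many clones the R9del cells came from. Cultures of different duration were held in different device groups, each with its own temperature control, and started from different cell numbers, and these differences cannot be told apart from duration. The number seeded for 5 days also differed between the genotypes, which cannot be told apart from genotype in the D5 libraries. Per the study, the space cultures alone met microgravity, space radiation, other stress in space, and vibration at launch and return. These parts of spaceflight cannot be told apart here.

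The primitive streak is the region of the embryo where epiblast cells leave the epithelium and become mesoderm and definitive endoderm. Nodal, Wnt3 and Bmp4 induce it, and its cells switch on T-box factors (T, Eomes, Tbx6), homeobox factors (Mixl1, Gsc, Evx1, Lhx1) and the bHLH factor Mesp1, while Cer1 encodes a secreted inhibitor of Nodal, Bmp and Wnt ligands. In mESC cultures these genes are usually low and are carried by the few cells that begin to differentiate. Bulk RNA does not separate fewer such cells from less RNA per cell.

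Library totals lay between 58238440 and 96416907 counts, and a gene with 0 counts may lie up to 3 counts, or 0.0335 to 0.0503 CPM (counts scaled to the library total), depending on the library. CPM values were scaled by TMM factors of 0.929 to 1.04, and intervals and limits of this kind cover counting error only. Rad9 itself was at 70.3 to 93.4 CPM in the R9wt libraries and 20.8 to 28.6 CPM in the R9del libraries, lower in every R9del library. The mESC markers Pou5f1, Sox2 and Nanog were detected in every library, and the markers Lum and Dcn of fibroblasts, a common feeder cell, did not exceed 0.11 CPM, although Thy1 was at 11.8 to 38.7 CPM and Col1a1 at 3.85 to 10.4 CPM.

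On mm9, the build of the files, T lies on the plus strand at chr17:8627288-8635361, Eomes on the plus strand at chr9:118387330-118395250 and Tbx6 on the plus strand at chr7:133924997-133929074. Mixl1 lies on the minus strand at chr1:182623174-182627165, Gsc on the minus strand at chr12:105709419-105711537, Evx1 on the plus strand at chr6:52263492-52268372 and Lhx1 on the minus strand at chr11:84331479-84338923. Mesp1 lies on the minus strand at chr7:86937127-86938674 and Cer1 on the minus strand at chr4:82527655-82531052. All are protein-coding genes, and the values come from the deposited read counts per gene. Of the 9 genes, Evx1 is the one whose exons overlap another annotated gene, with 2.54% of their length shared with an antisense gene, and the handling of strand was not given in the sources used here.

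The 250 bases before the start of 3 genes are shown because Gsc and Mesp1 were the members whose space and ground libraries did not overlap, and because T and Mesp1 hold the same pair of searched motifs. The sequences are RefSeq promoters on GRCm38.p6, a later build than that of the counts, at chr17:8434173-8434422 on the plus strand for T, chr12:104473237-104473486 on the minus strand for Gsc and chr7:79793591-79793840 on the minus strand for Mesp1. Capitals mark the T-box letters AGGTGT and the TCF/LEF letters CTTTGAA or CTTTGAT on either strand, and each sequence ends at the base before the gene's start.
T: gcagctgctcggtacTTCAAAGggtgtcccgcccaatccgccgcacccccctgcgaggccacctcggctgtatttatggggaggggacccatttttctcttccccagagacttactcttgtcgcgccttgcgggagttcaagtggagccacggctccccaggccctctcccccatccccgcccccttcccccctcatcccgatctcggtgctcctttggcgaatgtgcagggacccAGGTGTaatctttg
Gsc: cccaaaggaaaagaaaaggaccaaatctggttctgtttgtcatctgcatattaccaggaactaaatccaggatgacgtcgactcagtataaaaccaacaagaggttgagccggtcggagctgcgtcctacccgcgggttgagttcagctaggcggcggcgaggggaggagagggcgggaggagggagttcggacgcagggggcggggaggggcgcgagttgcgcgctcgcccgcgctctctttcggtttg
Mesp1: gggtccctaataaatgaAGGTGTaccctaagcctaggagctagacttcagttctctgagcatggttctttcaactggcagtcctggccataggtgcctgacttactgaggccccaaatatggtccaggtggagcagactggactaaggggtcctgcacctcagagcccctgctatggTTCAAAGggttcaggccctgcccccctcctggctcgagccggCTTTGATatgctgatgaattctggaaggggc
AGGTGT stood at positions -14 to -9 of T, at -233 to -228 of Mesp1 and, on the minus strand, at -38 to -33 of Evx1, counted from the gene's start. CTTTGAA stood on the minus strand at -235 to -229 of T and at -73 to -67 of Mesp1, and CTTTGAT stood at -31 to -25 of Mesp1. Promoter entries were matched for 8 of the 9 genes, all but Mixl1, and 3 of the 8 held AGGTGT against 11.8% of all 32851 promoters of that length. CTTTGAA or CTTTGAT was in 2 of the 8 against 7.48% of all promoters. Neither the FOXH1 letters AATCCACA, present in 0.718% of all promoters, nor the GATA letters AGATAA, present in 9.99%, were in any of the 8 windows. A match is a description of letters and says nothing of binding.

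Corrected for exon length, Eomes was the highest of the 9 genes, with a mean over the 8 libraries of 2.84 CPM per kb. Tbx6 followed at 1.09 CPM per kb, then Mixl1 at 0.567, T at 0.504 and Gsc at 0.437 CPM per kb. Mesp1 was at 0.202, Evx1 at 0.0925 and Lhx1 at 0.0868 CPM per kb, and Cer1 had 0 counts in all 8 libraries. The ranges of neighbouring genes in this order overlapped between libraries (Eomes 1.09 to 7.49 and Tbx6 0.373 to 2.28 CPM per kb, for example). Within each library, however, Eomes was above Tbx6, most narrowly in Ground_R9wt_D5 (2.45 and 2.28 CPM per kb). The other neighbours, apart from those next to Cer1, changed order between libraries. Only Eomes exceeded 1 CPM in every library, while Lhx1 and Mesp1 never reached it.

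**Figure D1:**
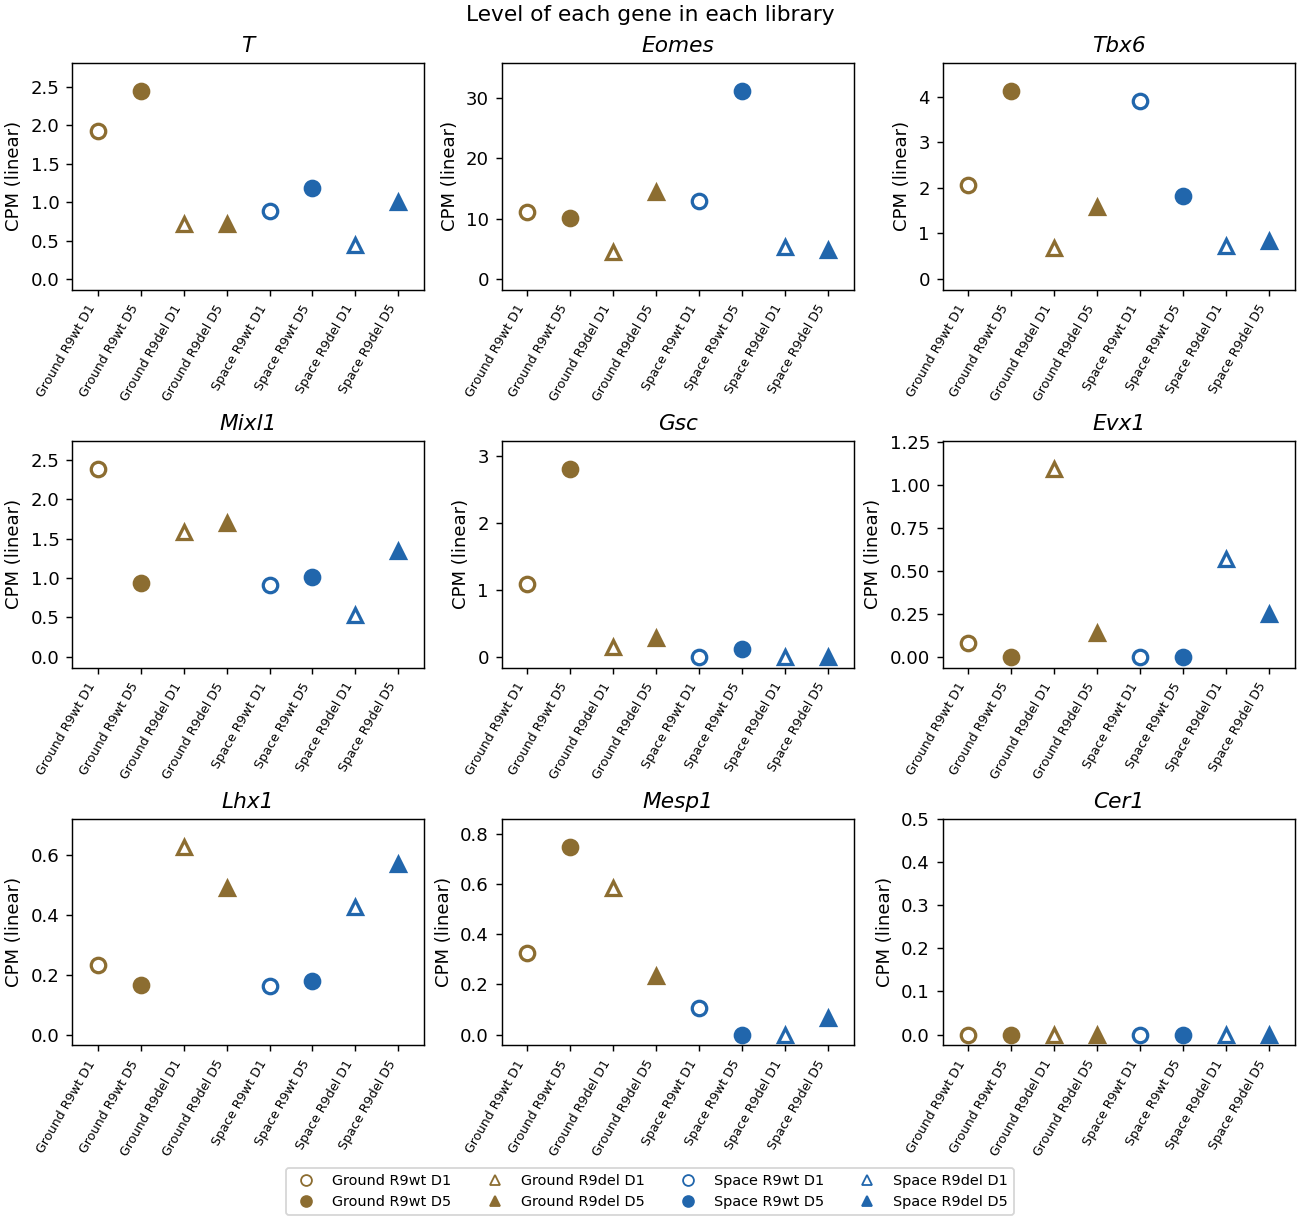
CPM (linear axes, one scale for each gene) of the 9 genes in the 8 libraries, 1 point a library, with ground libraries in brown, space libraries in blue, R9wt as circles, R9del as triangles and D5 filled. Gsc and Mesp1 are highest in ground libraries, Tbx6 is highest in R9wt libraries, Evx1 and Lhx1 are highest in R9del libraries, and Cer1 is at 0 throughout.

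The first comparison asks how the genes differed between space and ground. Gsc, a homeobox factor of the anterior streak and the organizer, was at 1.08, 2.80, 0.150 and 0.273 CPM in the ground libraries R9wt D1, R9wt D5, R9del D1 and R9del D5. In the space libraries of the same order it was at 0, 0.115, 0 and 0 CPM. Every space library lay below every ground library, and the 7 Gsc counts of the space libraries all came from R9wt D5, against 374 counts on the ground. The ground R9wt libraries stood above the ground R9del libraries as well. Mesp1, a bHLH factor of nascent and cardiac mesoderm, was at 0.326, 0.748, 0.583 and 0.232 CPM on the ground and at 0.105, 0, 0 and 0.0671 CPM in space. Its groups did not overlap either, and at 0 to 7 counts a library in space its level there is close to the limit of detection.

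In edgeR's quasi-likelihood test of 4 space against 4 ground libraries, the log2 fold change of Gsc was -5.19 (SE 1.45, unadjusted p = 0.00501, adjusted p = 0.0682) and that of Mesp1 was -3.41 (SE 1.04, unadjusted p = 0.00836, adjusted p = 0.0926). The exact two-sided permutation test over the libraries gave p = 0.0286 for each, which is the smallest value that 4 libraries against 4 allow. Groups that do not overlap always give this value, so it restates the non-overlap and is no further support. For the same reason both genes were lower in space in 4 of 4 matched pairs, which are libraries of the same genotype and duration. In R9wt D1 the space level of Gsc was 0.0414 of the ground level or less, with the space library taken at the limit of 3 counts, and in R9wt D5 it was 0.0409 of the ground level. In R9del the same bound was 0.285 at D1 and 0.184 at D5. For Mesp1 the space level was 0.321 of the ground level in R9wt D1, at most 0.0657 in R9wt D5, at most 0.0731 in R9del D1 and 0.289 in R9del D5.

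T, the founding T-box factor and a marker of the whole streak, was at 1.93, 2.45, 0.718 and 0.711 CPM in the ground libraries in the same order and at 0.881, 1.18, 0.441 and 1.01 CPM in space. It was lower in space in 3 of 4 pairs, and the groups overlapped (log2 fold change -0.73, adjusted p = 0.555, edgeR). Mixl1, a homeobox factor of the streak and early mesendoderm, was at 2.38, 0.938, 1.58 and 1.69 CPM on the ground and at 0.911, 1.02, 0.526 and 1.34 CPM in space. It too was lower in 3 of 4 pairs with overlapping groups (log2 fold change -0.80, adjusted p = 0.411, edgeR). The other tested members had log2 fold changes of 0.43 (Eomes), -0.21 (Tbx6) and -0.18 (Lhx1), with adjusted p of 0.785 or more in edgeR.

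Of the 9 genes, 7 passed the filter on low counts, and none of them passed the adjusted threshold (fold of at least 2, adjusted p under 0.05), where 5.55% of the 20473 genes tested did. At the unadjusted threshold (the same fold, p under 0.05 before adjustment) 2 members, Gsc and Mesp1, were lower and none was higher, against 8.38% of all genes lower. All space libraries lay below all ground libraries for 2 of the 7 tested members, against 9.37% of genes tested, and above them for none, against 5.07%. Gsc and Mesp1 passed the filter only through the ground libraries, where they are high, so these counts do not support a difference of the members as a group. Without the filter their adjusted p was 0.103 and 0.178. DESeq2's Wald test gave Gsc an adjusted p of 0.00324 and Mesp1 one of 0.023, in a test that called 8.31% of all genes, and edgeR's exact test, which called 7.23%, called both as well. With genotype and duration as covariates Gsc had an adjusted p of 0.0044, and with a block for matched pairs one of 0.00724, both past the threshold, while those of Mesp1 were 0.0797 and 0.124. Over all genes these 2 fits called 7.75% and 7.08%. Over 16 alternative settings the adjusted p ranged from 0.00324 to 0.158 for Gsc and from 0.00887 to 0.241 for Mesp1. The log2 fold change of Gsc was -4.08 without Ground_R9wt_D5, its highest library, and that of Mesp1 was -4.35 without Space_R9wt_D1, its highest space library. Leaving out Space_R9wt_D5, the one space library with Gsc counts, leaves Gsc at 0 in every space library, so that the adjusted p of 0.0474 in that fit follows from the removal and adds nothing to the comparison. As the libraries are single cultures, p-values throughout measure only the spread between these 8 libraries.

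Transcripts with a GC-rich stretch were lower in the space libraries, and Gsc and Mesp1 are among them. The most GC-rich window of 200 nucleotides in the longest coding transcript held 79.5% GC in Gsc and 76.5% in Mesp1, and 76% in Mixl1. Among the 2042 tested genes whose window held 75 to 80% GC, the median log2 fold change of space against ground was -0.52, 22.7% passed the adjusted threshold as lower and 31% had all space libraries below all ground libraries. Among the 3435 genes at 65 to 70%, where T (68%) and Tbx6 (67%) lie, the median was 0.13 and 1.19% were called lower. Above 80%, where Eomes (81%) lies, the median of 1232 genes was -0.13, and in the 248 genes under 50% it was -0.49. Its part in the values of Gsc and Mesp1 was not tested.

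**Figure D2:**
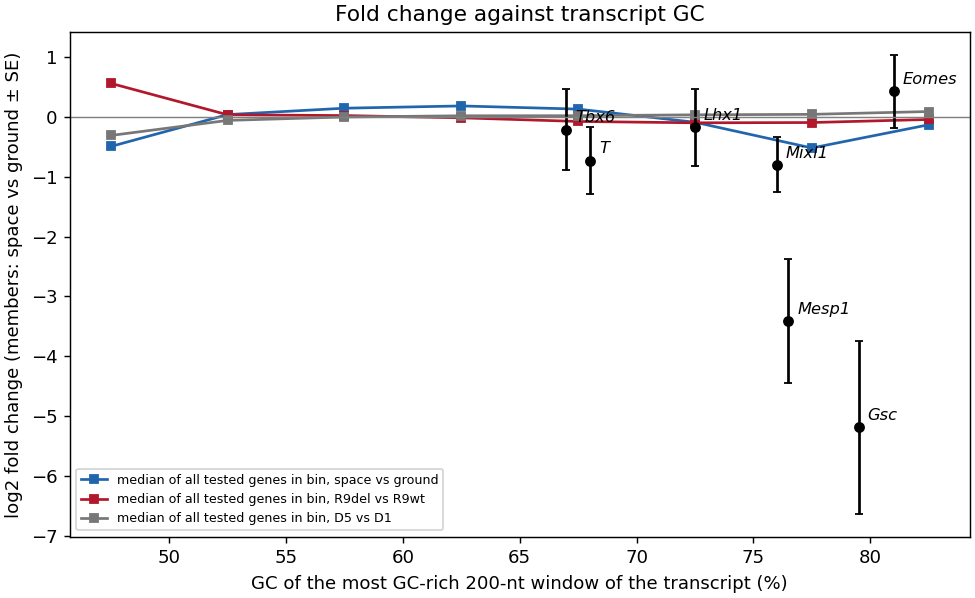
Log2 fold change against the GC content of the most GC-rich window of 200 nucleotides. Black points with SE bars are the 7 tested members in space vs ground, and squares joined by lines are medians of all tested genes in GC bins (drawn at bin centres) for space vs ground (blue), R9del vs R9wt (red) and D5 vs D1 (grey). The blue line dips to -0.52 in the bin at 75 to 80% that holds Mixl1, Mesp1 and Gsc.

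The second comparison asks how Rad9 deletion differed from wild type. Tbx6, a T-box factor of presomitic mesoderm, was at 2.06, 4.12, 3.91 and 1.82 CPM in the R9wt libraries ground D1, ground D5, space D1 and space D5. In the R9del libraries of the same order it was at 0.673, 1.59, 0.725 and 0.838 CPM. All R9del libraries lay below all R9wt libraries, with the highest R9del value, ground D5, just under the lowest R9wt value, space D5. The exact two-sided permutation p of Tbx6 was 0.0286, which follows from the groups not overlapping and is no further support. Its log2 fold change was -1.64 (SE 0.46, unadjusted p = 0.00506, adjusted p = 0.0928, edgeR), and the R9del level was 0.185 to 0.461 of the R9wt level over the 4 pairs. With a block for matched pairs in edgeR its adjusted p was 0.0433, past the threshold, where 6.75% of all genes were called. With location and duration as covariates in edgeR it was 0.0586, where 6.05% were called.

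Lhx1, a LIM homeobox factor of the node and anterior mesendoderm, went the other way. It was at 0.233, 0.168, 0.164 and 0.180 CPM in the R9wt libraries and at 0.628, 0.492, 0.426 and 0.570 CPM in the R9del libraries, so that the groups did not overlap. The 4 pairs gave R9del levels of 2.60 to 3.16 times R9wt, and the log2 fold change was 1.50 (SE 0.45, unadjusted p = 0.00738, adjusted p = 0.109, edgeR). The counts behind it were 11 to 20 in R9wt and 30 to 42 in R9del. Evx1, a homeobox factor of the posterior streak, was at 0.0814, 0, 0 and 0 CPM in R9wt and at 1.09, 0.137, 0.569 and 0.252 CPM in R9del. The groups did not overlap, and the D1 R9del libraries were the highest. The exact two-sided permutation p of Evx1 was 0.0286, as for Lhx1, which again follows from the non-overlap alone. Evx1 was removed by the low-count filter of the group comparisons. Without that filter its log2 fold change was 4.46 (SE 1.26, unadjusted p = 0.00457, adjusted p = 0.135, edgeR). The library Ground_R9wt_D1 held all 7 of its R9wt counts, and the adjusted p of 0.0491 in the fit without it follows from a group left at 0 and adds nothing to the comparison.

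For T, the R9wt libraries in the same order had 1.93, 2.45, 0.881 and 1.18 CPM and the R9del libraries 0.718, 0.711, 0.441 and 1.01 CPM. T was lower in R9del in 4 of 4 pairs, by a ratio of 0.372 (D1) and 0.291 (D5) on the ground and 0.50 and 0.853 in space, but the groups overlapped because space R9del D5 exceeded space R9wt D1. Its log2 fold change was -1.16 (unadjusted p = 0.0309, adjusted p = 0.198, edgeR). Gsc had 1.08, 2.80, 0 and 0.115 CPM in R9wt and 0.150, 0.273, 0 and 0 CPM in R9del, which differed on the ground and were near the limit of detection in space. Its log2 fold change was -3.21 (adjusted p = 0.295, edgeR). Single libraries moved it to -1.90 (without Ground_R9wt_D5) and -4.25 (without Ground_R9del_D5). With location and duration as covariates, where 6.05% of all genes were called, the adjusted p of Gsc was 0.048, with a block for matched pairs, where 6.75% were called, it was 0.0428, and it ranged from 0.0428 to 0.596 over the alternatives.

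Eomes, a T-box factor of streak and definitive endoderm that trophoblast stem cells also express, was at 11.2, 10.2, 12.9 and 31.1 CPM in R9wt and at 4.55, 14.4, 5.22 and 4.83 CPM in R9del. One library of each genotype stood apart, space R9wt D5 and ground R9del D5, and the second of these lay among the R9wt values. The log2 fold change was -1.17 (unadjusted p = 0.0443, adjusted p = 0.234, edgeR). Mixl1 and Mesp1 had log2 fold changes of -0.03 and -0.43 between the genotypes, with adjusted p of 0.885 or more in edgeR, and leaving out single libraries turned the sign of both.

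In R9del against R9wt none of the 7 tested members passed the adjusted threshold, where 1.81% of genes did. At the unadjusted threshold 3 members (Tbx6, T and Eomes) were lower, against 7.62% of genes, and 1 member (Lhx1) was higher, against 6.19%. R9del lay entirely below R9wt for 1 of the 7 tested members, against 7.19% of genes tested, and entirely above it for 1 (Lhx1), against 7.10%. Evx1, also entirely above, was not among the genes tested. DESeq2's Wald test, which called 8.68% of all genes, and edgeR's exact test, which called 6.84%, each called 2 members, Tbx6 (adjusted p = 0.00699 and 0.031) and Lhx1 (adjusted p = 0.023 and 0.039). Over the 16 alternatives the adjusted p ranged from 0.00699 to 0.247 for Tbx6 and from 0.023 to 0.295 for Lhx1. The number called at the unadjusted threshold fell from 4 to 2 without Ground_R9del_D1 and likewise without Space_R9del_D1.

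The third comparison asks how 5 days of culture differed from 1 day. No member separated D5 from D1. The log2 fold changes were 0.84 for Eomes, 1.36 for Gsc, 0.43 for T, 0.18 for Tbx6, 0.07 for Mesp1, -0.04 for Lhx1 and -0.12 for Mixl1, and edgeR's adjusted p was 1 for each. None of the 7 passed the adjusted threshold (0% of all genes) or the unadjusted one (3.49% of genes). No member had all D5 libraries below all D1 libraries (1.17% of genes) or above them (1.68%). DESeq2's Wald test and edgeR's exact test also called no member, and over all genes they called 0.444% and 0.176%. The sign of all tested members but Eomes turned when 1 or another library was left out. The log2 fold change of Eomes was 0.20 without Space_R9wt_D5, in place of 0.84. Ground_R9wt_D5 alone held the highest level of T, Tbx6, Gsc and Mesp1 among the D5 libraries.

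**Figure D3:**
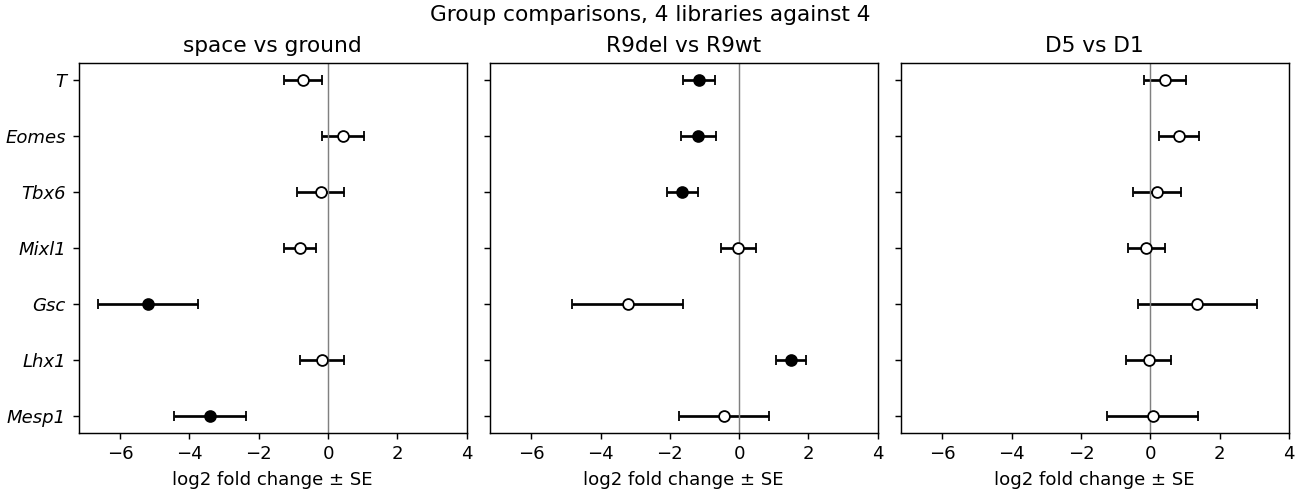
Log2 fold change (x axis, bars are SE) of the 7 members that passed the low-count filter in the 3 comparisons of 4 libraries against 4. Filled points passed the unadjusted threshold, which are Gsc and Mesp1 in space vs ground, and T, Eomes, Tbx6 and Lhx1 in R9del vs R9wt. No point passed the adjusted threshold.

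Whether an effect on the members differed between conditions was tested with interaction terms in edgeR, in a fit where Evx1 also passed the filter, so that 8 members were tested. For location with genotype none had an adjusted p under 0.05 (0% of 22561 genes) or an unadjusted one (3.08% of genes). The same held for location with duration, where 0.00443% of genes passed the adjusted and 6.43% the unadjusted threshold. It held as well for genotype with duration, with 0% and 4.33% of genes. DESeq2 also called no member in any of the 3. The closest were Tbx6 for location with duration (log2 interaction -1.62, unadjusted p = 0.0623) and Eomes for location with genotype (log2 interaction -1.61, unadjusted p = 0.073).

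Eomes is shared with trophoblast, and markers of that lineage varied widely between the libraries. The summed level of 10 trophoblast markers, Eomes among them, was 208 to 397 CPM in the D1 libraries and 525 to 3030 CPM in the D5 libraries, and it was highest in space R9wt D5, the library with the most Eomes. Second was ground R9wt D5 at 1998 CPM, where Eomes was at 10.2 CPM and below the D1 value of 11.2 CPM. Keratin genes made up most of these sums, while Cdx2, a defining factor of trophoblast, was at 0.0671 to 2.93 CPM and Elf5 at 0 to 0.43 CPM. Without Space_R9wt_D5 the log2 fold change of Eomes in space against ground was -0.39 in place of 0.43. Without both R9wt D5 libraries, a choice made after seeing the data, its log2 fold change in R9del against R9wt was -0.73. Without the same 2 libraries the log2 fold change of Mesp1 in space against ground was -2.71 (adjusted p = 0.241), and Gsc was at 0 counts in all remaining space libraries and at 0.150 to 1.08 CPM in the remaining ground libraries. In R9del against R9wt 7 of 9 tested trophoblast markers, Eomes among them, had negative log2 fold changes and 2 had positive ones (median of the list -1.17). Of these 9 markers 1, Eomes itself, was lower at the unadjusted threshold, against 7.62% of genes. The part of trophoblast cells in the Eomes values was not tested.

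**Figure D4:**
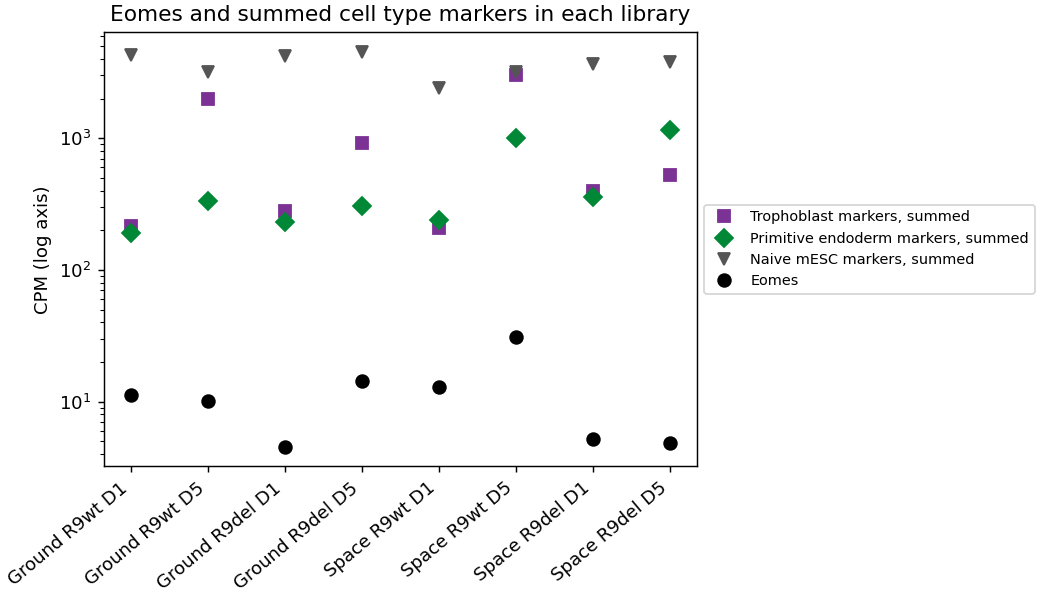
CPM (log axis) of Eomes and the summed CPM of 10 trophoblast, 11 primitive endoderm and 14 naive mESC markers in each of the 8 libraries, 1 point a library. Trophoblast markers reach 1998 and 3030 CPM in the R9wt D5 libraries and Eomes reaches 31.1 CPM in space R9wt D5, while naive mESC markers stay between 2413 and 4521 CPM.

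Among the genes around the streak programme, none of 16 tested signals that induce it passed the adjusted threshold between space and ground, where 5.03% of all genes tested were called lower and 0.523% higher. Their summed level was 1677 CPM on the ground and 699 CPM in space in R9wt D1, but 461 CPM on the ground and 1158 CPM in space in R9wt D5. In R9del it was 1321 CPM on the ground and 1393 CPM in space at D1, and 1318 and 1440 CPM at D5. Fgf4, a growth factor of mESCs, had the lowest unadjusted p of the list, with a log2 fold change of -1.08 (adjusted p = 0.0585, edgeR). Among inhibitors of these signals 3 of 18 fell and none rose, and the share to read this and the next counts against is 5.03% lower over all genes and 22.7% among genes with windows of 75 to 80% GC. Bambi, a decoy receptor for Bmp and Nodal ligands, fell from 27.0 to 55.1 CPM on the ground to 1.34 to 2.67 CPM in space (log2 fold change -4.23, adjusted p = 9.33e-05, edgeR). The Wnt inhibitor Sfrp5 (-2.79) and the Bmp inhibitor Nog (-2.50) fell as well. Of 23 receptors and transducers 3 fell, namely Sp5 (-4.91), a transcription factor induced by Wnt, Acvr2a (-1.54), an activin and Nodal receptor, and Bmpr2 (-1.24), a Bmp receptor. Sp5 was at 0.525 to 3.23 CPM on the ground and at 0 to 0.142 CPM in space, close to the limit of detection. Nog was at 0.0995 to 0.470 CPM in space. Like Gsc and Mesp1, Sp5 and Nog passed the low-count filter only through the ground libraries, so their calls do not support a difference of their lists.

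Of 18 other streak, mesoderm and tail-bud genes 4 fell in space, which were the caudal homeobox genes Cdx1 (-3.10) and Cdx2 (-3.02) and the Notch pathway genes Dll3 (-2.66) and Lfng (-1.55). Cdx1 was at 2.81 to 7.39 CPM on the ground and at 0.384 to 0.852 CPM in space. Of 13 endoderm, anterior streak and node genes 3 fell, Sox17 (-3.92) and Hhex (-1.86), both endoderm factors, and Foxj1 (-2.46), a factor of motile cilia. In space Cdx2 was at 0.0671 to 0.377 CPM and Sox17 at 0.0597 to 0.770 CPM. These genes too passed the low-count filter only through the ground libraries, so their calls do not support a difference of their lists. Sox17 is also a marker of primitive endoderm, and of 11 tested markers of that lineage it was the one that fell, while 8 had positive log2 fold changes (median of the list 1.35). At the unadjusted threshold 3 of these markers, Pdgfra (1.78), Lama1 (1.46) and Col4a1 (1.35), were higher, against 529 of the 20473 genes tested. The summed level of the primitive endoderm markers was 189 to 337 CPM on the ground and 238 to 1156 CPM in space, and the part of such cells in the members' values was not tested. No gene of these 4 lists rose, nor did any of 9 EMT genes pass the test, among which the cadherin Cdh1 had a log2 fold change of 0.64 (unadjusted p = 0.0479, adjusted p = 0.26, edgeR). Of these 13 genes, 6 (Acvr2a, Bambi, Cdx1, Dll3, Foxj1 and Hhex) were called in all 8 fits that left out 1 library, and the others in 1 to 6 of them. Single libraries moved Sox17 to -5.24 (without Space_R9wt_D5) and Sp5 to -6.13 (without Space_R9del_D1). Apart from Bmpr2 at 54% and Foxj1 at 73%, their most GC-rich windows held 74.5 to 80% GC. As with Gsc and Mesp1, the part of GC content was not tested.

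In R9del, Bmp4, one of the streak-inducing signals, rose from 11.9 to 31.2 CPM in R9wt to 93.2 to 127 CPM (log2 fold change 2.40, adjusted p = 0.0297, edgeR), the one called gene of 16, where 1.04% of all genes were called higher and 0.772% lower. Meox1, a homeobox gene of paraxial mesoderm, rose (log2 fold change 2.31, adjusted p = 0.0447), and Nkx1-2, a homeobox gene of the caudal epiblast, fell from 8.14 to 44.7 CPM to 0 to 0.359 CPM (log2 fold change -7.02, adjusted p = 0.0309, edgeR). These were 2 of 18 streak, mesoderm and tail-bud genes. Nkx1-2 passed the low-count filter only through the R9wt libraries, where it is high, so its call does not support a difference of the list. No inhibitor (of 18), receptor or transducer (of 23) or endoderm and node gene (of 13) passed, and Nodal had a log2 fold change of 1.44 (unadjusted p = 0.00413, adjusted p = 0.0845, edgeR). The calls of this comparison depended on single libraries: over all genes none passed without Ground_R9wt_D5, Ground_R9del_D1, Space_R9wt_D1 or Space_R9del_D1. Bmp4 was called in 4 of the 8 fits that left out 1 library, Nkx1-2 in 3 and Meox1 in 1. The log2 fold change of Nkx1-2 was -6.12 without Ground_R9wt_D1 and -8.04 without Ground_R9del_D1.

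For D5 against D1 no list gene passed the adjusted threshold in edgeR. At the unadjusted threshold 6 of 9 trophoblast and 6 of 11 primitive endoderm markers were higher and none was lower, against 2.43% of all genes higher and 1.06% lower, Krt7 having a log2 fold change of 3.36 (adjusted p = 0.671) and Dab2 one of 2.05 (adjusted p = 0.978). Of the streak-inducing signals 2 of 16 were lower at that threshold, Wnt5b (-1.89, adjusted p = 1) and Wnt8a (-1.48, adjusted p = 1).

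Among markers of other states, the naive pluripotency factor Esrrb rose in space (log2 fold change 1.16, adjusted p = 0.00796, edgeR) and Klf5 fell (-2.45, adjusted p = 0.0195, edgeR), the first in 8 and the second in 5 of the 8 fits without 1 library. Over all genes 0.523% were called higher in space and 5.03% lower. The most GC-rich window of Klf5 held 79% GC, in the range where 22.7% of genes were called lower. The part of GC content in the Klf5 values was not tested. In R9del the neuronal tubulin Tubb3 (2.65) and the markers of two-cell-like cells Zscan4c (4.83), Zscan4d (5.36) and Usp17lc (4.15) rose, with calls that held in 0 to 3 of the 8 fits without 1 library. Without Space_R9del_D1 the log2 fold changes were 3.71 for Zscan4c, 4.22 for Zscan4d and 3.18 for Usp17lc. For lists with no gene past the adjusted threshold, up to 2 genes with the largest log2 fold change among those at an unadjusted p under 0.05 were picked, and others at that p are not named here. In R9del the picked genes not yet given were Cxcr4 -1.63, Fn1 -1.69, Dnmt3b 0.86, Notum 2.11, Sfrp2 -1.88, Nr0b1 2.43, Dppa3 -1.94, Sox7 2.40, Tcf7l1 1.27 and Lrp5 -0.91, and in space Lin28b -0.99. In D5 against D1 the picked streak, endoderm and signalling genes were Foxa2 1.92, Gata6 1.41, Hand1 2.16, Lef1 -2.04, Tcf7l2 1.17, Frzb 2.55 and Axin2 -1.34. The picked genes of the marker lists were Plac1 3.97, Afp 4.12, Acta2 3.71, Col1a2 1.89, Lin28b -1.18, Sall2 -0.99, Dppa3 2.18, Tcl1 0.96, Pax6 -2.30 and Nes -0.67.

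Across the 8 libraries the members did not vary as 1 block. Pearson's r of log2 CPM was 0.916 between Evx1 and Lhx1, and -0.915 and -0.882 between Tbx6 and those genes. It was 0.764 between T and Gsc, 0.697 between Gsc and Mesp1 and 0.666 between T and Tbx6, while Mixl1 had r of -0.001 with Tbx6 and 0.076 with Eomes. These are descriptions over 8 libraries that share the study's conditions, and genes with several counts of 0 weigh on them. Of the 14057 genes whose mean reached 1 CPM, those most like each member over the 8 libraries were Stra13 (r = 0.995), Tmem14c and Rpl35a-ps4 for T, Zfand1 (r = 0.990), Zfp395 and Rnf182 for Eomes, and Ube2t (r = 0.996), Grpel2 and Acot13 for Tbx6. For Mixl1 they were Bok (r = 0.953), Tomm5 and Pfdn4, for Gsc Stx3 (r = 0.992), Cnn3 and Prkcz, and for Evx1 Meox1 (r = 0.981), Eif2d and Acap3. With a prior count of 0.5 in place of 2, 1 of the 3 genes for Gsc remained among the most alike, and 1 of the 3 for Evx1 remained with scaling by library size alone.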

How the data were processed

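Each of 8 mESC cultures gave 1 RNA-seq library. The authors aligned paired-end reads to mm9 with TopHat2 2.0.9 after FastQC, per the submitters' processing notes, and deposited whole-number read counts per gene without normalization. The counting program, the annotation and the handling of strand are not given in the sources used here. From these counts, edgeR 4.0.16 in R 4.3.3 gave TMM-scaled CPM. Genes kept by filterByExpr (minimum count 10) were compared with edgeR's quasi-likelihood test, 4 libraries against 4, with Benjamini-Hochberg adjustment over all genes tested. Calls needed at least a 2-fold difference with adjusted p below 0.05 or, as in the study, unadjusted p below 0.05. Interactions had the third variable as covariate. Log2 CPM used a prior count of 2, and ratios used a floor of 3 counts. The fit was tested on simulated data. Alternatives were DESeq2 1.42.0 size factors and Wald test, library size alone, no filter, edgeR's exact test, covariates, a block for matched pairs and each library left out.

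The members, the gene lists and the tests were chosen with earlier results of these data known. Named genes are the members, the 3 genes most like each member that exceeds 1 CPM, list genes past the adjusted threshold, and otherwise up to 2 per list at an unadjusted p under 0.05. Rad9 and markers named outside this rule are checks of the labels. Gene positions come from a GENCODE annotation of mm9, and promoter sequences from RefSeq.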

Additional observations from a re-analysis of the deposited data

Results flagged for a closer look

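Each member's CPM was examined in 6 groups of 4 libraries (48 groups over the 8 detected genes). In 8 of them the highest library lay far from the next by Dixon's ratio. The rate of about 1 in 20 for this ratio holds for draws from 1 normal distribution. These groups mix conditions and hold low counts on a linear scale, so the number flagged has no chance rate to be set against. In 2 of the 8, Gsc in the space libraries and Evx1 in the R9wt libraries, the other libraries are at 0 counts, which fixes the ratio. The groups share libraries, so the cases are not independent. Eomes was flagged in Space_R9wt_D5 among the R9wt libraries (31.1 CPM, next 12.9 CPM) and in Ground_R9del_D5 among the R9del libraries (14.4 CPM, next 5.22 CPM). Mixl1 stood out in Ground_R9wt_D1 among the R9wt libraries at 2.38 CPM, where the next library was at 1.02 CPM. Gsc stood out in Space_R9wt_D5 among the space libraries (0.115 CPM, the others at 0), in Ground_R9wt_D1 among the D1 libraries (1.08 CPM) and in Ground_R9wt_D5 among the D5 libraries (2.80 CPM, next 0.273 CPM). Evx1 stood out in Ground_R9del_D1 among the ground libraries (1.09 CPM, next 0.137 CPM) and in Ground_R9wt_D1 among the R9wt libraries, at 0.0814 CPM where the others had 0 counts. Each condition is a single culture, so a culture that differs by chance and a combined effect of its conditions cannot be told apart.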

How the results depend on the processing

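The low counts of these genes limit what can be resolved: 3 counts correspond to up to 0.0503 CPM, and Lhx1, Mesp1 and Evx1 rest on 199, 162 and 145 counts over all libraries. No member passed the adjusted threshold with TMM, DESeq2's size factors, library size alone or no filter in the 3 group comparisons. In space against ground, DESeq2's Wald test and edgeR's exact test called 2 members, covariates 1 and the block for matched pairs 1 (Gsc), where these settings called 7.08 to 8.31% of all genes in place of 5.55%, and fits that left out 1 library called 0 to 1. In R9del against R9wt the same settings called 2, 2, 1 and 2 (Tbx6 and Gsc with the block for matched pairs), where they called 6.05 to 8.68% of all genes in place of 1.81%, and leaving out 1 library called 0 to 1. The single calls of these leave-out fits are Gsc and Evx1 in fits whose lower group is left at 0 counts. The count at the unadjusted threshold there, 4, was 2 to 5 when 1 library was left out. The matched pairs share conditions and no culture, so the block stands for conditions only. No member call appeared in D5 against D1 or the interactions under any alternative run. Signs turned for members far from the threshold: for Mixl1 in R9del against R9wt to 0.05 with library size alone, and in D5 against D1 to 0.06 with covariates and 0.06 with the block for matched pairs, where Mesp1 turned to -0.18 and -0.14. Without both R9wt D5 libraries, chosen after seeing the data, log2 fold changes in space against ground turned to -0.39 for Eomes and 0.35 for Tbx6, that of Mesp1 in R9del against R9wt to 0.04, and those in D5 against D1 to -0.22 for T, -0.61 for Tbx6, 0.15 for Mixl1, -1.16 for Gsc, 0.53 for Lhx1 and -0.76 for Mesp1. Leaving out 1 library at a time gave log2 fold changes in space against ground of -4.35 to -3.0 for Mesp1, -0.39 to 0.71 for Eomes, -0.90 to 0.34 for Tbx6 and -0.56 to 0.17 for Lhx1, and in R9del against R9wt of -4.25 to -1.90 for Gsc, -0.17 to 0.43 for Mixl1 and -1.55 to 0.59 for Mesp1. In D5 against D1 it gave 0.20 to 1.13 for Eomes, -0.04 to 0.97 for T, -0.38 to 0.84 for Tbx6, -0.38 to 0.31 for Mixl1, -1.24 to 3.97 for Gsc, -0.37 to 0.36 for Lhx1 and -1.31 to 0.86 for Mesp1. The cause of these changes was not tested. Gsc, Mesp1, T and Mixl1 kept the sign of space against ground in all 16 alternatives, although the log2 fold change of T was as small as -0.36. T, Eomes, Tbx6, Gsc and Lhx1 kept that of R9del against R9wt. A kept sign therefore does not set Gsc and Mesp1 apart. Where groups do not overlap, leaving out 1 library cannot turn their order, so those fits do not test it.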
